A study of Mus musculus with 8 samples.

Results

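The 10 genes studied here are linked to intestinal regeneration and to the coactivator YAP, and their histone acetylation peaks are described: Clu, Ly6a, Anxa1, Anxa2, Il33, Areg, Ereg, Yap1, Tead1 and Tead4. They were chosen by name from 21883 protein-coding genes, and each locus was its RefSeq gene body on GRCm38 plus 50 kb on each side. The data are CUT&Tag profiles, made with a transposase tethered by antibodies, of histone H3 acetylated at lysine 27 (H3K27ac) or lysine 9 (H3K9ac). Small intestinal crypts came from male C57BL/6J mice aged 9 weeks. Each mark had 4 groups, called Fed (-Tetra), Fast (-Tetra), Fed (+Tetra) and Fast (+Tetra), in which Fast mice went without food for 24 h and +Tetra mice received tetracycline, an antibiotic, for 21 days. The comparisons ask whether fasting and the antibiotic alter acetylation at these loci. A group was 1 sample with 2 peak lists, so each mark had 8 lists. The labels do not say whether the lists came from different mice, so p-values measure only the spread between lists and are too small if lists repeat a sample.

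YAP is a coactivator restrained by the Hippo kinases, and in the nucleus it acts through DNA-binding TEAD factors. In the injured intestinal epithelium, YAP activity accompanies a fetal-like state in which Ly6a (encoding Sca-1), Clu (clusterin) and annexins are expressed. Areg and Ereg encode amphiregulin and epiregulin, ligands of the EGF receptor, and Il33 encodes an alarmin cytokine of the interleukin 1 family. H3K27ac marks active enhancers and promoters, while H3K9ac lies mostly at active promoters.

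H3K27ac lists held 32392 to 68545 peaks covering 33.067 to 64.238 Mb, and H3K9ac lists held 17249 to 99050 peaks covering 16.536 to 47.25 Mb. The lists are called downsampled, and the read depth behind each is unknown. H3K9ac lists 1 stood apart in both directions, with 17249 and 24643 peaks in the Fed lists but 99050 and 97764 in the Fast lists. Of 12 crypt epithelium markers, 9 to 12 had an H3K27ac peak within 1 kb of a gene end, against 2 to 5 of 7 immune, 0 to 1 of 6 stromal, 0 to 1 of 3 nerve and glial and 0 of 3 endothelial markers. No peak in a list means none above the authors' threshold, not absence of the mark.

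The start regions of 3 members carried H3K27ac in most lists, as did an internal start site of Il33, and their sequences are shown because peaks lay over them. RefSeq promoter windows of GRCm38.p6 (250 bases before to 50 after the start, 300 in all, written 5′ to 3′ along the gene) were found for 5 members. Capitals mark matches to a TEAD motif (GGAATG), an AP-1 motif (TGANTCA), a GC box (GGGCGG) and a TATA box (TATAAA), each searched on both strands.
Areg, chr5:91139349-91139648, plus strand: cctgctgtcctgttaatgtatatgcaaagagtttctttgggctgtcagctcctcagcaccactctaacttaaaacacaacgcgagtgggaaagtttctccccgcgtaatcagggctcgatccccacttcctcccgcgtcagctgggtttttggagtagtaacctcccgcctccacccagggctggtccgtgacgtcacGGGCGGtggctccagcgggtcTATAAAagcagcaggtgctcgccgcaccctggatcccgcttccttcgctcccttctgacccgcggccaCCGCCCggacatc
Yap1, chr9:8004547-8004846, minus strand: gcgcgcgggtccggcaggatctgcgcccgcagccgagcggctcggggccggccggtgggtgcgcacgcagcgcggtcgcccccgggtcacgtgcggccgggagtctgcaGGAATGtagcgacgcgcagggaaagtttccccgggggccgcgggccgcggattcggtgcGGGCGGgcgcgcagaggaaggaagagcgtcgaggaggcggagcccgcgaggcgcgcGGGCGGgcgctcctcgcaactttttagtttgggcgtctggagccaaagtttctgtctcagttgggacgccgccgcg
Anxa2, chr9:69453433-69453732, plus strand: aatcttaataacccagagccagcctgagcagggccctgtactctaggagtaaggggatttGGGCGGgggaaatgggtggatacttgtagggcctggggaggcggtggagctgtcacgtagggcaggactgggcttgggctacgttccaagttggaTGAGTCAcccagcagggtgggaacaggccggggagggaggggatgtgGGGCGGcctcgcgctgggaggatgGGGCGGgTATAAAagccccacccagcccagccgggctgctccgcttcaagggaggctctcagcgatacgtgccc
Il33 internal start, chr19:29945540-29945839, plus strand: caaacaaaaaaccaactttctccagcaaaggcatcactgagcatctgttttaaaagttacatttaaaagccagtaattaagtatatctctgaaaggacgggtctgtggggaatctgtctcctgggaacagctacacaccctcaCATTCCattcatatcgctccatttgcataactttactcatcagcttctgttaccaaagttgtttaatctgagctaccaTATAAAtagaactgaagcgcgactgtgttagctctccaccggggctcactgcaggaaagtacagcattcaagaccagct

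The Yap1 window held the TEAD letters at position -141, counted from its start, with 2 GC boxes. The internal Il33 window held them on the opposite strand, with a TATA box. They also lay in the windows of Anxa1 (-236, opposite strand) and of the first Il33 start (-131), which no peak overlapped and which are not printed. An AP-1 match, TGAGTCA, lay in the Anxa2 window only among the 4 printed, beside 3 GC boxes and a TATA box. The Areg window held 2 GC boxes and a TATA box. Of 32851 RefSeq windows of this length, 14.663% held the TEAD letters, 7.808% the AP-1 letters, 35.658% a GC box and 13.616% a TATA box. Windows differed in base composition, with 74.0% G and C at Yap1, 63.67% at Anxa2, 59.33% at Areg and 42.33% at the internal Il33 start, against a median of 52.67% over all windows. A match is a description of letters, not of binding.

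Peaks at gene ends sorted the 10 genes into constant, variable and unmarked ones. Yap1 and Anxa2 had a peak within 1 kb of a gene end in all 8 H3K27ac and all 8 H3K9ac lists, as did 33.6% and 21.1% of all genes. Anxa1 and Il33 had none in any list of either mark, as did 39.4% and 25.2% of all genes. For H3K27ac, Clu, Ly6a, Ereg and Tead4 were marked in more Fast than Fed lists (background 13.2% of genes), and Areg and Tead1 in more Fed than Fast lists (background 9.44%). For H3K9ac, Ly6a and Tead1 were marked in more Fast lists (background 23.8%) and Areg, Ereg and Tead4 in more Fed lists (background 20.7%). Peaks at either end counted. Tead1 in both lists 1 with tetracycline, and Ereg in Fast list 2 without it, had an H3K9ac peak at the higher-numbered end only. No member was marked in all 4 lists of one feeding state and in none of the other, a pattern of 0.096% of genes for H3K27ac in Fast lists and 0.0137% in Fed lists (0.0777% and 0.0411% for H3K9ac). A mean of 5.5 members per Fed list and 6.5 per Fast list was marked by H3K27ac, and 5.0 and 4.75 by H3K9ac. These means were not tested. With equal numbers of top-scoring peaks per list they were 4.25 and 4.5 for H3K27ac and 4.0 and 2.0 for H3K9ac.

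**Figure D1:**
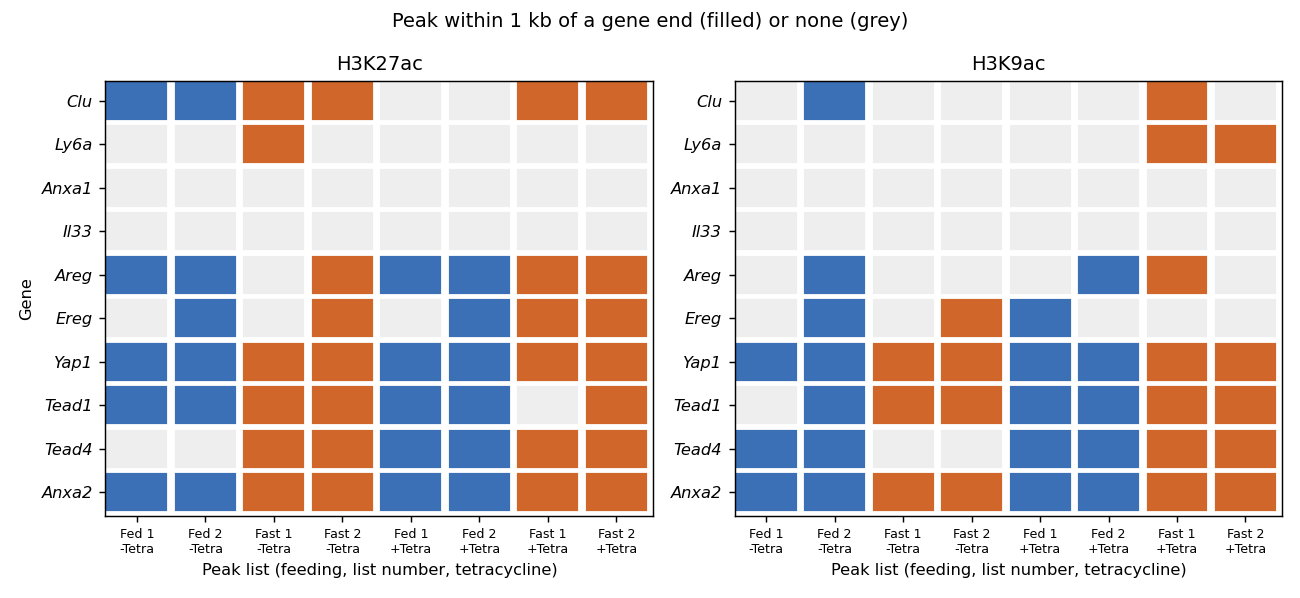
Presence (filled, blue for Fed and orange for Fast) or absence (grey) of a peak within 1 kb of a gene end, for each of the 10 genes (rows) in the 8 lists of each mark (columns). Yap1 and Anxa2 are filled in every column and Anxa1 and Il33 in none, while Clu and Tead4 under H3K27ac are filled in all 4 Fast columns and in 2 Fed columns each.

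The length covered by peaks over a locus was then compared with limma, on log2 of covered base pairs plus 1000 bp, with Benjamini-Hochberg adjustment over all genes having a mean of at least 500 bp (16681 for H3K27ac, 18314 for H3K9ac). For each mark 9 of the 10 members were tested, and Anxa1 fell below that mean. In H3K27ac, 2 of 9 members, Tead1 and Tead4, rose with fasting averaged over both tetracycline states, against 0.743% of all genes (124 higher and 0 lower). Clu entered the test only through its Fast lists, with a mean of 273.0 bp in Fed and 1484.0 bp in Fast lists, so its estimate is a description. With it, 8 of the 9 estimates were above 0, as were 79.5% of all genes. Of the 9, 5 had an unadjusted p under 0.05 (limma), as did 11.3% of all genes. The members' median change, Clu included, was 0.21 and that of all genes 0.19 on the log2 scale. Since the filter favoured a rise at Clu, these tallies and the denominator of 9 are descriptions, not a result about the members. Fast lists covered 48.194 to 64.238 Mb genome-wide and Fed lists 33.067 to 55.99 Mb, and list 2 with tetracycline was lower in Fast (48.194 Mb) than in Fed (55.99 Mb). The median of all genes was -0.0053 without lists 1, 0.39 without lists 2 and 0.024 with equal numbers of top peaks. Without lists 1 it was 0.17 in the state without tetracycline and -0.17 in the state with it. The upward shift of all genes thus varied with the lists and the number of peaks used, and its cause was not tested. The part this shift plays in the members' changes was not tested. With the list number as a block, 401 genes were higher and 5 lower, and 2 members passed.

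Tead1 and Tead4 encode TEAD factors, the DNA-binding partners of YAP. Over Tead1 (chr7:112679356-112906784), H3K27ac peaks covered 2678 and 6523 bp in the Fed lists and 14444 and 13786 bp in the Fast lists without tetracycline. With tetracycline they covered 1500 and 3697 bp in the Fed lists and 5556 and 11703 bp in the Fast lists. Fast lists exceeded Fed lists within each state, but over both states 1 Fast list (5556 bp) lay below 1 Fed list (6523 bp). The change was 1.47 ± 0.30 (log2, SE; adjusted p = 0.0263, limma), an estimate above that of 99.67% of genes. The estimates within states were 1.52 ± 0.42 without tetracycline (adjusted p = 0.1852, or 0.03928 with the list number as a block, limma) and 1.41 ± 0.42 with it (adjusted p = 0.4888). The call was lost with equal numbers of top peaks (adjusted p = 0.08996), a pseudocount of 200 bp (0.1013), no filter (0.4144) or 10 kb flanks (0.1649, all limma), while the estimate stayed at 1.34 or above.

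Most of the Tead1 acetylation lay inside its 227429 bp body. Body peaks numbered 3, 7, 1 and 4 in the Fed lists and 17, 16, 7 and 10 in the Fast lists, 15 against 50 in sum. Of 33 merged H3K27ac regions in the locus, 29 were found in more Fast than Fed lists and 1 in more Fed lists. However, 18 of the 33 were in a single list, always a Fast one. Fast lists held 36737 to 68545 peaks genome-wide and Fed lists 32392 to 48242. The share of all regions found in more Fast lists was not counted, so the 29 are a description. The end region chr7:112678320-112680132 was in 4 Fed and 3 Fast lists, and the body region chr7:112705305-112706701 was in all 8. The regions at chr7:112788113-112789021 and chr7:112823150-112824337, each over 80 kb from the nearer end of the gene, were in 1 Fed and all 4 Fast lists. Body peak numbers and the presence of 1 end region are unlike measures, and the end region was already in all 4 Fed lists. Where in the locus the feeding difference lay was therefore not tested.

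At Tead4 (chr6:128227143-128300813) no H3K27ac peak lay in either Fed list without tetracycline, while the Fast lists covered 4640 and 3262 bp. With tetracycline, the Fed lists covered 2511 and 2274 bp and the Fast lists 2900 and 3216 bp. All 4 Fast lists lay above all 4 Fed lists, as for 5.29% of genes. The averaged change was 1.28 ± 0.26 (log2, SE; adjusted p = 0.0263, limma). With 2 Fed lists at 0 bp its size depends on the pseudocount, and with 200 bp it was 2.34, or 4.36 without tetracycline. Without tetracycline it was 2.29 ± 0.37 (adjusted p = 0.01501), 1 of 14 genes that rose there (0.0839% of genes), and with tetracycline 0.26 ± 0.37 (adjusted p = 1), where 0 genes passed and 721 (4.32%) had an unadjusted p under 0.05 (limma). With the list number as a block, 81 genes rose and 1 fell without tetracycline, and 10 rose with it. The difference between these effects was -2.04 ± 0.52 (unadjusted p = 0.0008653, adjusted p = 1, limma), so the states could not be shown to differ; 0 genes passed this test, 268 (1.61%) had an unadjusted p under 0.05, and 2 genes, neither a member, passed with the list number as a block. The averaged call was lost with equal numbers of top peaks (change 1.14, adjusted p = 0.358), no filter (1.28, adjusted p = 0.09101) or centred lists (1.05, adjusted p = 0.07457, all limma). The call without tetracycline was also lost under these 3 settings and with 10 kb flanks, with changes from 1.26 to 2.29 and adjusted p from 0.05266 to 0.6804 (limma).

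At Tead4, 2 regions carried this pattern, chr6:128300065-128301287 at the higher-numbered gene end and chr6:128277135-128278550 in the body. Each had a peak in all 4 Fast lists and in both Fed lists with tetracycline, and in neither Fed list without it. H3K9ac at the same end (chr6:128299719-128301276) had the opposite arrangement without tetracycline, with a peak in both Fed and neither Fast list; with tetracycline it was in all 4. The marks thus differed at this end in which lists of untreated mice had a peak.

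**Figure D2:**
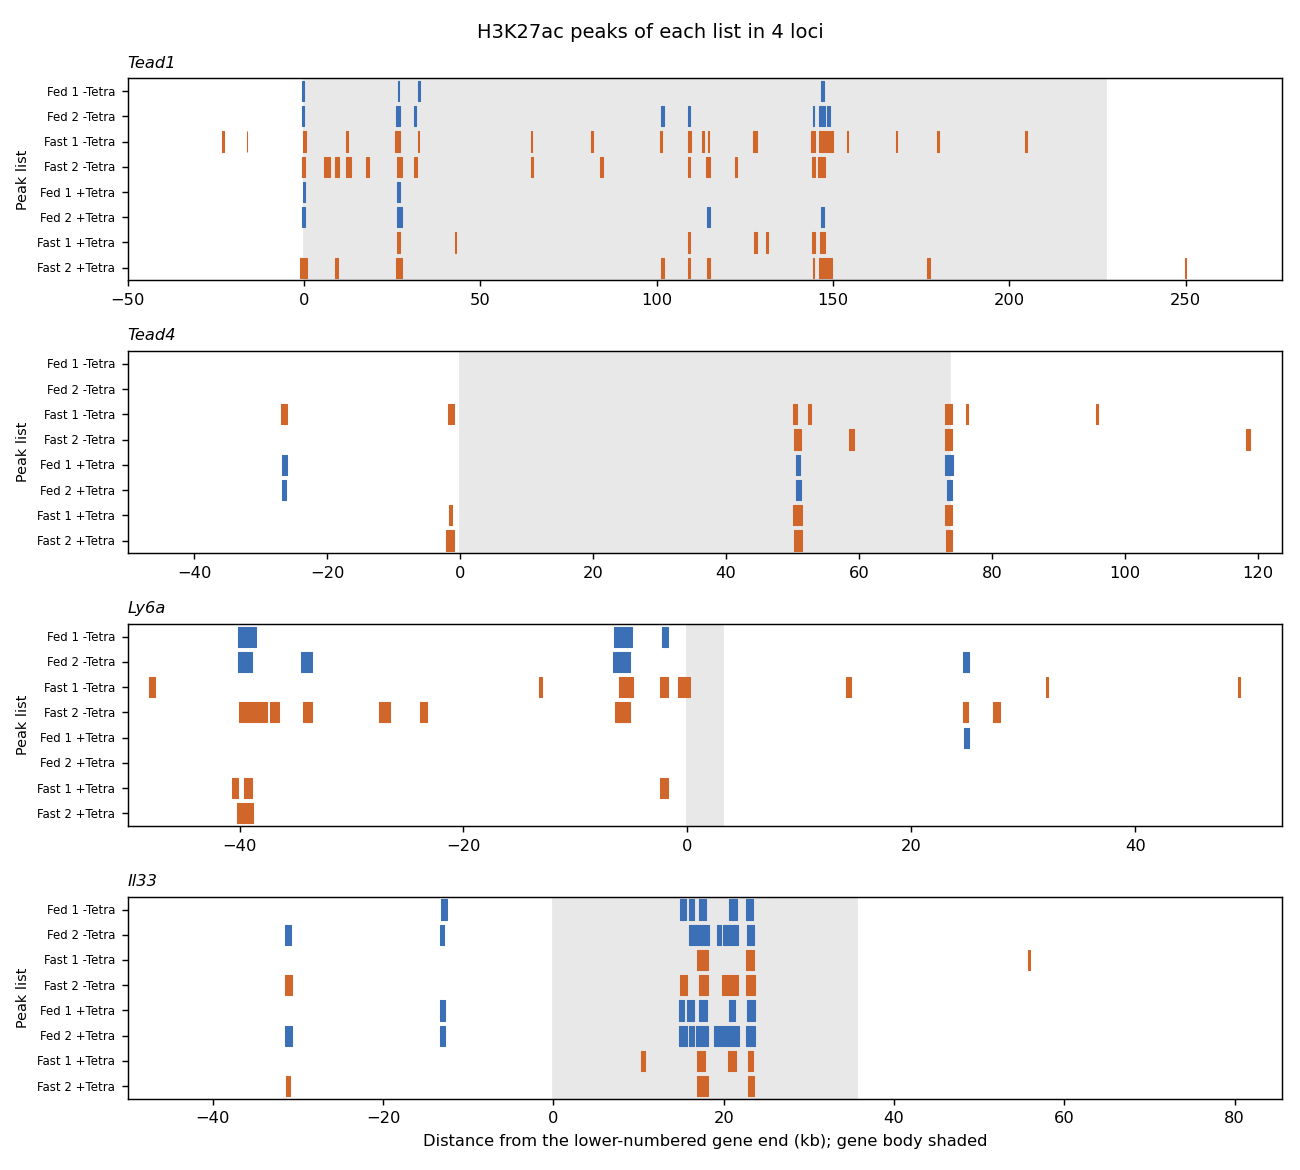
H3K27ac peaks of each list (rows; blue Fed, orange Fast) along the Tead1, Tead4, Ly6a and Il33 loci, with distance in kb from the lower-numbered gene end on the x axis and the gene body shaded. Tead1 body peaks number 15 in the Fed and 50 in the Fast rows, the 2 Fed -Tetra rows of Tead4 are empty, and the Il33 flank peak about 12 kb outside the gene appears in the 4 Fed rows only.

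Yap1 (chr9:7931999-8004638), the coactivator gene itself, differed little between groups. H3K27ac covered 3433 and 5363 bp (Fed) and 4754 and 6959 bp (Fast) without tetracycline, and 3654 and 4914 bp (Fed) and 4309 and 4671 bp (Fast) with it. Feeding states overlapped, and the change was 0.21 ± 0.25 (log2, SE; adjusted p = 0.8364, limma). Its end region chr9:8002821-8005352, which includes the window printed above, and the body region chr9:7967722-7969301 were in all 8 H3K27ac lists.

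Among the fetal-like markers, Clu, which encodes the secreted chaperone clusterin, had little acetylation (chr14:65968483-65981548). H3K27ac covered 424 and 668 bp in the Fed and 1922 and 1163 bp in the Fast lists without tetracycline. With it, the Fed lists had 0 and 0 bp and the Fast lists 1405 and 1446 bp. All Fast lists lay above all Fed lists, an ordering that 5.29% of genes shared. The estimate was 0.99 ± 0.30 (log2, SE; adjusted p = 0.1434, limma), and since Clu passed the filter through its Fast lists alone, nothing is read from it. Its end region, chr14:65968122-65968955, was in all 4 Fast lists and in the 2 Fed lists without tetracycline, and a body region, chr14:65977700-65978540, was in 3 Fast lists and no Fed list. The end peak was weak within most lists, at percentiles 9.0 to 76.4 of the authors' score. Over the 8 lists, covered length of Prpf18 and Arhgap4 was among the most like that of Clu (Pearson r of log2 values 0.98 and 0.96, of 16677 genes compared), and 100 genes exceeded 0.9; the 8 points share list size.

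Ly6a, which encodes the surface protein Sca-1, was the one member whose H3K27ac change with tetracycline passed the threshold (chr15:74994877-74998031). H3K27ac covered 3771, 4376, 4616 and 8118 bp in the 4 lists without tetracycline (2 Fed, then 2 Fast) and 391, 0, 2066 and 1498 bp in those with it. Every list with tetracycline lay below every list without it, as for 1.22% of genes. Covered length fell by 1.74 on the log2 scale (SE 0.27; adjusted p = 0.01278, limma), 1 of 9 members tested against 0.144% of all genes (0 higher, 24 lower). With 1 list at 0 bp this size depends on the pseudocount. The call was lost with equal numbers of top peaks (change -1.33, adjusted p = 0.9743), a pseudocount of 200 bp (-2.66, adjusted p = 0.07459), no filter (-1.74, adjusted p = 0.3934) and 10 kb flanks (-1.34, adjusted p = 0.4162, all limma). Over all members, 4 of 9 estimates for tetracycline were above 0, as were 27.6% of all genes, and no member had every list with tetracycline above every list without (0.128% of genes). The fasting estimate of Ly6a in H3K27ac was 0.86 ± 0.27 (adjusted p = 0.1524, limma). H3K9ac over the locus showed no such fall with tetracycline. In the same order of lists it covered 0, 3085, 1120 and 1911 bp without tetracycline and 0, 2917, 3367 and 2092 bp with it.

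No H3K27ac peak lay in the Ly6a body, and 1 list, Fast list 1 without tetracycline, had a peak at its end. The difference lay in the flanks, which also hold Ly6e, Ly6i and Ly6c1, so the covered length cannot be assigned to Ly6a alone. The region chr15:74988264-74990042, 4835 bp from the gene, was in all 4 lists without tetracycline and in none with it, as were 0.0882% of all 112301 H3K27ac regions. The region in most lists, chr15:74954179-74957289, lay at the end of Ly6e and was in 5 lists, 3 of them without tetracycline. Ly6a is also expressed by immune and stromal cells. With tetracycline, 6 of 7 immune markers had estimates below 0. All 7 lay between -0.85 and 0.11 with a median of -0.33 (log2), and none passed (smallest adjusted p = 0.7459, limma). Over all genes the median was -0.11, and 27.6% of estimates were above 0. Immune markers with an end peak numbered 3 to 5 of 7 without and 2 to 5 with tetracycline, and 5 of 6 stromal markers (Col1a1, Col1a2, Pdgfra, Pdgfrb, Dcn) had none in any H3K27ac list. Their part in the Ly6a result was not tested.

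The annexins, calcium-dependent membrane-binding proteins, were at opposite ends. Anxa2 (chr9:69453683-69491792) was among the most covered genes, at percentile 90.8 of mean H3K27ac length. H3K27ac covered 13243 and 15675 bp (Fed) and 15591 and 16751 bp (Fast) without tetracycline, and 11390 and 18389 bp (Fed) and 16207 and 17042 bp (Fast) with it. The feeding states overlapped (change 0.17 ± 0.24, log2, SE; adjusted p = 0.87, limma). In all 8 lists 5 regions were found, the widest being chr9:69452728-69461184, 8457 bp across the start shown above. That width is of peaks merged over the 8 lists. Within single lists the widest peak of the locus measured 2331 to 8235 bp. At Anxa1 (chr19:20373434-20390671) a single 200 bp H3K27ac peak in 1 Fast list without tetracycline was found in 8 lists.

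**Figure D3:**
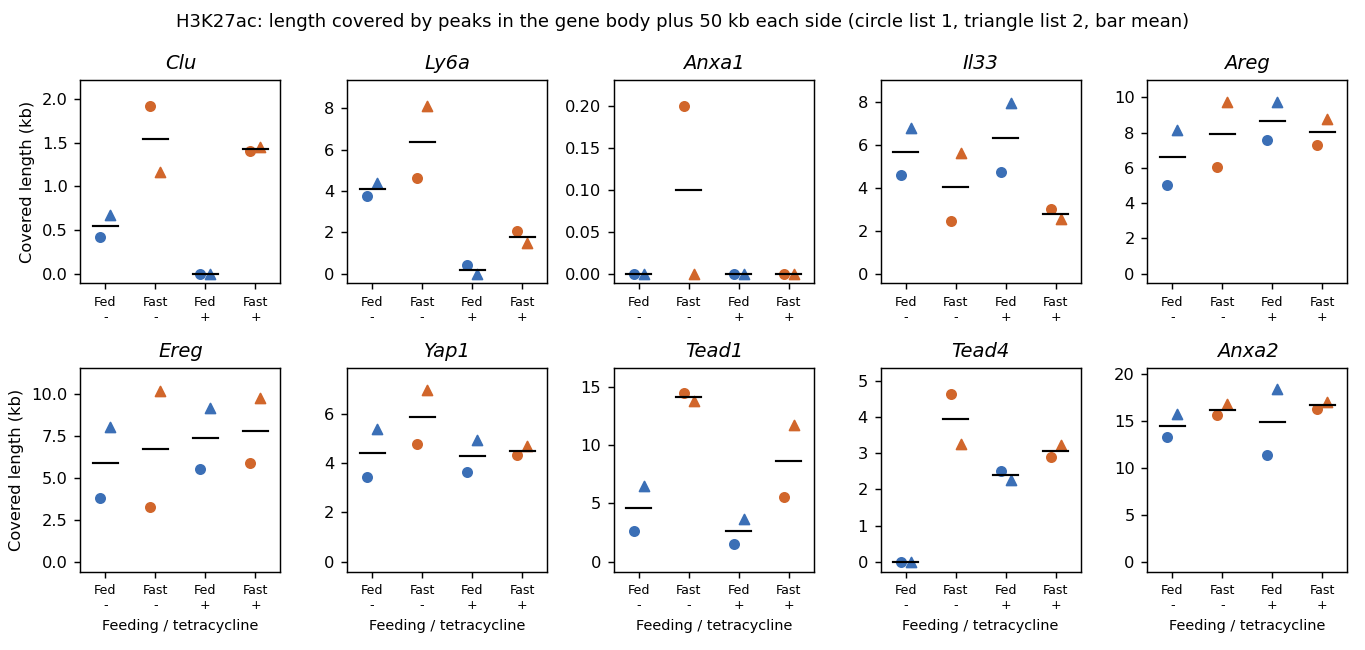
H3K27ac covered length in kb (y axis) over each gene body plus 50 kb per side, for the 4 groups on the x axis (feeding, and - or + tetracycline), with a circle for list 1, a triangle for list 2 and a bar for their mean; y scales differ by gene. Tead4 is at 0 in both Fed - lists, and the 4 Ly6a values with tetracycline (0 to 2066 bp) lie under those without (3771 to 8118 bp).

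Of the ligands, Il33 (chr19:29925113-29960718) was the one member tested whose H3K27ac estimate for fasting was below 0. Peaks covered 4595 and 6760 bp (Fed) and 2441 and 5612 bp (Fast) without tetracycline, and 4714 and 7928 bp (Fed) and 3015 and 2522 bp (Fast) with it. Fed lists were mostly higher, but 1 Fast list (5612 bp) exceeded 2 Fed lists. No member had all Fed lists above all Fast lists, an ordering found for 0.128% of genes. The change, -0.70 ± 0.27 on the log2 scale, did not pass (SE; adjusted p = 0.2873, limma); with lists centred on their medians it was -0.92 and passed (adjusted p = 0.03026). No peak lay over the first RefSeq start of Il33, while peaks over the internal start printed above were in 4 Fed and 2 Fast H3K27ac lists and in 1 Fed H3K9ac list. Body regions chr19:29940838-29943430 and chr19:29947751-29948795 were in all 8 H3K27ac lists.

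A flank region of Il33, chr19:29911784-29912670, 12443 bp outside the gene, had H3K27ac peaks in each of the 4 Fed lists and was absent from the Fast lists. A second such region, chr5:91198337-91199266, lay 49905 bp from Areg, across the limit of its window. These were the only regions in the 10 loci split by feeding for either mark, and both ran in the Fed direction. Over the 10 loci, 114 H3K27ac regions were examined. Genome-wide, 94 of 112301 regions (0.0837%) were split in this direction and 449 (0.4%) in the other. For H3K9ac, no region of the loci was split by feeding, as 0.0189% (Fast) and 0.0145% (Fed) of 295928 regions were, or by tetracycline (0.00879% in lists without it only, 0.0189% in lists with it only). No H3K27ac region of the loci was confined to the 4 lists with tetracycline (0.024% of all regions). Single-list regions made up 55 of the 114 H3K27ac regions (48.25%, against 53.1% genome-wide) and 200 of 244 H3K9ac regions (81.97%, against 84.4%), while 17 (14.91%, against 14.6%) and 2 (0.82%, against 1.52%) were in all 8 lists.

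Areg (chr5:91139599-91148432) and its neighbour Ereg (chr5:91074617-91093649) share much of their flanks, so their covered lengths are not independent. Areg had 5050 and 8170 bp (Fed) and 6057 and 9749 bp (Fast) of H3K27ac without tetracycline, and 7596 and 9768 bp (Fed) and 7306 and 8752 bp (Fast) with it. Ereg ranged from 3824 to 9160 bp in the Fed and from 3243 to 10170 bp in the Fast lists. In all 4 groups and at both genes list 2 was above list 1, and the feeding states overlapped. The changes were 0.06 ± 0.25 and 0.07 ± 0.31 (log2, SE; adjusted p = 0.9549 and 0.9633, limma), and both turned negative with equal numbers of top peaks or centred lists. Between the genes, 3 regions, chr5:91097760-91099017, chr5:91109642-91110881 and chr5:91122997-91124417, were in all 8 lists, as were 3 beyond Areg (the widest chr5:91175557-91177228) and chr5:91038233-91039532 near Ereg. The region over the Areg start shown above, chr5:91138983-91140266, was in 4 Fed and 3 Fast lists.

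**Figure D4:**
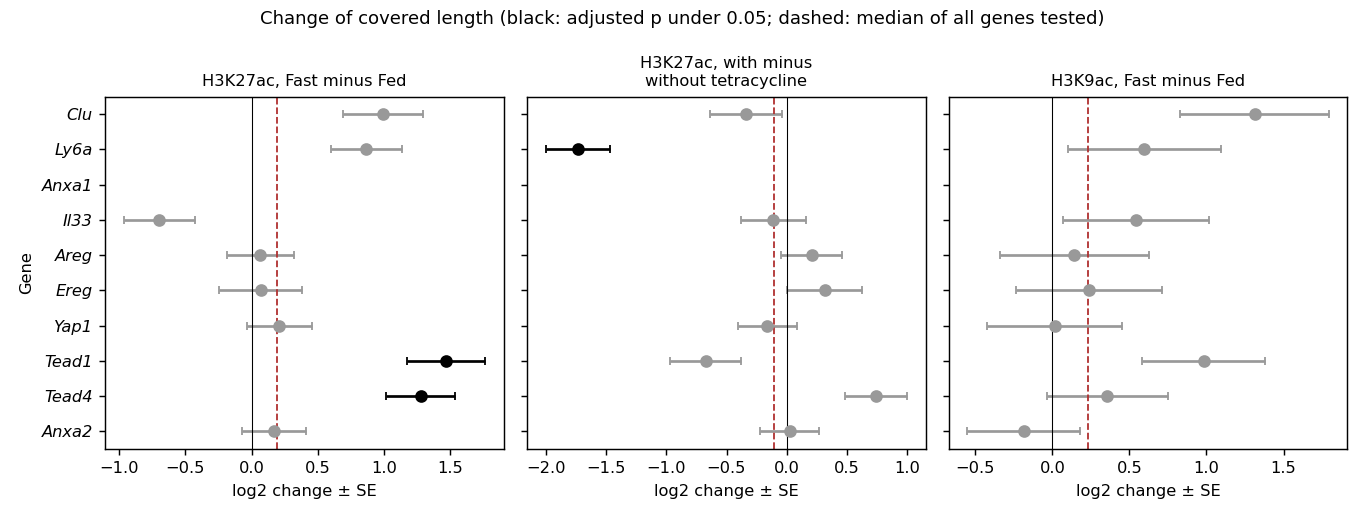
Change of covered length (x axis, log2, bars ± SE) for each gene (y axis) in H3K27ac with fasting, H3K27ac with tetracycline and H3K9ac with fasting; black points have an adjusted p under 0.05, and the dashed line is the median of all genes tested. Tead1 and Tead4 are black in the left panel, Ly6a (-1.74) in the middle one and none in the right one; Anxa1 was not tested.

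H3K9ac gave no member that passed for fasting (0 of 9 tested, against 1 gene, lower, or 0.00546% of all genes; 938 genes, 5.12%, and 2 members had an unadjusted p under 0.05, limma). Clu had 0 and 1740 bp (Fed) and 3928 and 2436 bp (Fast) without tetracycline, and 0 and 298 bp (Fed) and 4314 and 510 bp (Fast) with it. Its change was 1.31 ± 0.48 (log2, SE; adjusted p = 0.9205, limma), and 1 Fast list lay below 1 Fed list. Tead1 had 2592 and 6707 bp (Fed) and 7938 and 5357 bp (Fast), then 984 and 4065 bp (Fed) and 11006 and 5193 bp (Fast) with tetracycline. Its change was 0.98 ± 0.40 (adjusted p = 0.9205, limma), with 15 body peaks over the Fed and 44 over the Fast lists. The Fast lists 1, with 99050 and 97764 peaks genome-wide, gave 11 and 18 of the 44. Lists 2 gave 5 and 7 body peaks in Fed and 7 and 8 in Fast.

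The other H3K9ac estimates ran from -0.19 (Anxa2) to 0.60 (Ly6a), with adjusted p of 0.9205 to 0.9967 (limma), beside a median of 0.23 over all genes. No member had its H3K9ac lists fully ordered by feeding (3.48% of genes had all Fast above all Fed lists and 0.251% the reverse) or by tetracycline (0.238% with above without, 0.142% the reverse). These values rest on lists 1: without them the Clu change was 0.27 and that of Tead1 0.0061 on the log2 scale, and 6 of the 8 positive estimates turned negative. With equal numbers of top peaks all 7 members then tested were below 0, and the median of all genes was -0.41. For tetracycline, 0 genes passed in H3K9ac (73, or 0.399%, with an unadjusted p under 0.05), and for the difference of the fasting effects 0 (52, or 0.284%; limma).

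**Figure D5:**
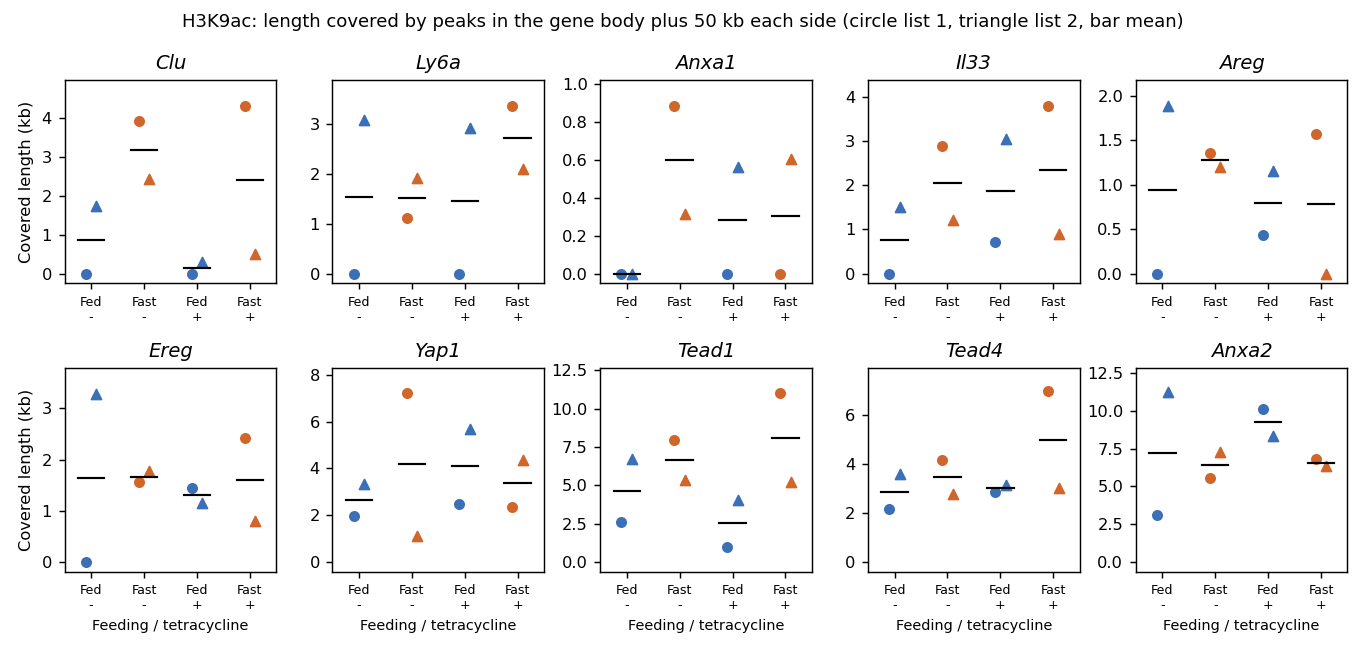
H3K9ac covered length in kb (y axis) by group (x axis), with a circle for list 1, a triangle for list 2 and a bar for their mean; y scales differ by gene. Fed circles lie low and Fast circles high at Clu (0 and 0 bp against 3928 and 4314 bp), while triangles are closer together.

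The rest of the pathway was followed in lists of related genes, H3K27ac first. Of 11 Hippo kinases and regulators, which restrain YAP, 9 to 10 had an end peak per list, 8 in every list, and none passed for fasting (7 of 11 estimates above 0, median 0.28, log2). Of the coactivators and factors Wwtr1, Tead2, Tead3 and Vgll4, 2 to 4 were marked and 0 of 4 passed (4 above 0, median 0.54). Of 7 YAP target genes, 3 to 5 were marked and 0 of the 6 tested passed (median 0.23). Of 12 further fetal-like and regeneration markers, 5 to 8 were marked and 0 of the 8 tested passed (7 above 0, median 0.20, range -0.21 to 0.34). Over all genes the median was 0.19, 79.5% of estimates were above 0 and 0.743% of genes rose.

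Of 9 EGF receptor family members, other ligands and the interleukin 33 receptor gene, 6 to 7 were marked and 1 of 8 tested rose, Tgfa, which encodes the ligand TGF-alpha (1.06 ± 0.25, log2, SE; adjusted p = 0.04901, limma). Of the 12 epithelial markers, 2 rose, the crypt base stem cell genes Olfm4 (1.65 ± 0.27, adjusted p = 0.007851) and Ascl2 (1.43 ± 0.26, adjusted p = 0.01277, limma). All 12 estimates were above 0, as were 79.5% of all genes. Tgfa, Olfm4 and Ascl2 are named for having passed. Their calls were not followed under the alternative settings. Whether they passed the filter through their Fast lists alone was not examined. In the immune list Ptprc had an end peak in each of the 4 Fast lists but not in the Fed lists, a split shared by 0.096% of genes. Its covered length changed by 0.86 ± 0.29 (adjusted p = 0.1893, limma). Of the immune estimates, 7 of 7 were above 0, with a median of 0.21. The background for this and the next lists is 79.5% of all genes above 0, with a median of 0.19. Of the 3 stromal markers tested, 3 were above 0 (median 0.34), and of the 2 endothelial ones 2 (Pecam1 0.33 and Cdh5 0.85), while S100b, the nerve and glia marker tested, was at -0.07; none passed (smallest adjusted p 0.2148, Cdh5, limma). The part of these other cell types in the members' changes was not tested. In H3K9ac none of these lists held a gene that passed for fasting (smallest adjusted p = 0.9205, limma), beside 0.00546% of all genes. Tetracycline moved no gene of these lists past the threshold in either mark. Over all genes, 0.144% passed for tetracycline in H3K27ac and 0 in H3K9ac. For the difference of the fasting effects no gene passed in either mark, in these lists or over all genes. These absences are near the background and say nothing particular about the lists.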

How the data were processed

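CUT&Tag of H3K27ac and H3K9ac was made with a CUTANA kit, per the labels' protocols. FastQC, Bowtie and SAMtools and the build mm10 are named in the submitters' processing notes. Each deposited peak list gives chromosome, start, end, a name beginning with MACS and the authors' score, at least 50, which has no stated unit and was used only to rank peaks within a list. MACS version, cutoff and use of IgG libraries are not given in the sources used here. Peaks were taken as called per list; whether reads had been pooled beforehand is not given.

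Members, gene lists and tests were chosen with earlier results of these data known. All 10 members are named whatever their values. Genes whose covered length was most like that of Clu were to be named by Pearson correlation, and 1 of them is not reported here. Other genes of the lists were to be named only where marked in all 4 lists of one feeding state and none of the other; Tgfa, Olfm4 and Ascl2, and markers named as absent, were chosen after their values were seen. Regions named are those found in most lists or split by feeding, with further ones chosen after their values were seen. Overlapping peaks of a mark's 8 lists were merged into regions. Gene ends came from a RefSeq table of GRCm38.p6, which gives no strand; promoter windows give it for 5 members.

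Covered length was tested with limma 3.58.1 in R 4.3.3 (4 group means, trended variance, threshold 0.05), and the procedure was tested on simulated data. Alternatives were equal numbers of top peaks (32392 and 17249), a pseudocount of 200 bp, no filter, centred lists, 10 kb flanks, the list number as a block, a 2.5 kb end window, start sites only, and leaving out lists 1 or 2. To check pairing, differences between lists 2 and 1 correlated between groups at 0.11 to 0.30 for H3K27ac and at -0.05 to 0.27 for H3K9ac. The ranges of the marks overlapped, with the highest H3K9ac value (0.27) between the Fast groups, and no criterion for pairing was set. Whether list numbers pair the lists was therefore not settled for either mark. The main fits of both marks left the list number out, and it entered only as the block alternative. Python 3.11.15, numpy 2.4.6, pandas 2.3.3 and matplotlib 3.10.9 were used.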

Additional observations from a re-analysis of the deposited data

How the results depend on the processing

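Changes are log2 and adjusted p-values are from limma. The list is the unit of spread, depth is unknown, and a covered length depends on the peak threshold. Of 266 values recomputed on all lists, 226 kept direction and side of the threshold, 15 lost a call, 2 gained one and 23 turned. In H3K27ac, the 2 members that rose with fasting became 0 with equal numbers of top peaks, 1 with a pseudocount of 200 bp, 0 with no filter and 1 with 10 kb flanks. With centred lists 1, Tead1, rose, Tead4 was lost and Il33 fell (-0.92, adjusted p = 0.03026). The 124 genes, all higher, became 22 with top peaks (17 higher, 5 lower), 16 with the pseudocount, 42 with no filter and 23 with 10 kb flanks. They became 175 with centred lists (150 higher, 25 lower; centring took the median of all genes from 0.19 to -0.04) and 406 with the replicate block. For tetracycline the 1 member became 0 with top peaks, the smaller pseudocount, no filter or 10 kb flanks, and the 24 genes became 0, 2, 11 and 0 there and 13 with centred lists. The 0 genes for the difference of fasting effects became 10 with no filter and 2 with the replicate block. The block raised Tead1 without tetracycline past the threshold, as given with that result, and changed no other member's call. In H3K9ac it left 1 gene called for fasting, as without it. That 1 gene became 0 with top peaks, the smaller pseudocount, no filter or 10 kb flanks. Fast minus Fed members marked was 1.0 in H3K27ac, 0.25 with top peaks and -0.75 with start sites only (5 members). In H3K9ac it was -0.25, and -2.0 with top peaks. The cause of these shifts was not tested.

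Without lists 1 or 2, members marked differed by 1.0 to 1.0 in H3K27ac and by -1.5 to 1.0 in H3K9ac. Each group then has 1 list and no residual degrees of freedom, so numbers of calls could not be given. Tead1 rose by 1.21 to 1.73, Tead4 by 1.23 to 1.32, and Ly6a with tetracycline gave -2.15 to -1.33. Estimates that turned were those not called. In H3K27ac with fasting, Areg became -0.17 with top peaks and -0.16 centred, Ereg -0.18 and -0.16, and, centred, Yap1 -0.021 and Anxa2 -0.058. Leaving out lists gave -0.059 to 0.20 for Ereg and -0.0068 to 0.35 for Anxa2. Without tetracycline, the Ly6a fasting change became -0.29 with top peaks. With tetracycline, Il33 became 0.012 centred, Yap1 0.0043 with top peaks and Anxa2 -0.028 with 10 kb flanks; leaving out lists gave -0.35 to 0.13 for Il33 and -0.074 to 0.12 for Anxa2. For the difference of fasting effects, Ereg became -0.16 and Tead1 0.58 with top peaks, and Tead1 0.039 centred; leaving out lists gave -1.11 to 0.19 for Il33, -0.23 to 0.25 for Ereg, -0.68 to 0.46 for Tead1 and -0.19 to 0.25 for Anxa2. In H3K9ac with fasting, top peaks gave Ly6a -0.20, Il33 -0.047, Ereg -0.73, Yap1 -0.37, Tead1 -0.064 and Tead4 -0.38. Centred lists gave Areg -0.11, Ereg -0.019 and Yap1 -0.24, and the smaller pseudocount Yap1 -0.025. Leaving out lists gave -0.41 to 1.61 for Ly6a, -0.64 to 1.73 for Il33, -0.75 to 1.03 for Areg, -0.44 to 0.92 for Ereg, -0.68 to 0.71 for Yap1, -0.16 to 0.88 for Tead4 and -0.46 to 0.082 for Anxa2.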
